A study of Mus musculus with 16 samples.

Results

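Bone marrow derived mast cells (BMMCs) that had met antigen in the presence of dexamethasone (DEX) were compared with BMMCs that had only been sensitized with IgE. The comparison used the 4 samples labelled IgE DNP DEX and the 4 samples labelled IgE, 8 of the 16 samples of the series, chosen by these treatment labels alone. Each group held 2 PEP+/+ and 2 PEP-/- samples, where PEP is the phosphatase encoded by Ptpn22. All BMMCs were grown for 4 weeks from the marrow of male C57BL/6 mice aged 8 to 10 weeks, in medium with stem cell factor and IL3. All 8 samples had been sensitized with IgE (0.05 µg/ml, 3 h), and the IgE DNP DEX samples had in addition been given DEX (100 nM, 8 h) and the antigen DNP (200 ng/ml, 1 h). The study's methods state another IgE dose than the sample labels, and the label value is given here. The other 8 samples, IgE DNP (antigen alone) and IgE DEX (DEX alone), showed what each stimulus did without the other. The study calls the samples biological replicates, but neither its methods nor the labels say how many mice or cultures stood behind them, so the p-values measure the spread among these samples, which may be technical.

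IgE sits on the high-affinity receptor FceRI of the mast cell. Antigen that cross-links it starts Lyn and Syk signalling, calcium entry and the MAP kinase and NF-kB pathways, which release granules and switch on immediate early genes, cytokines and, with them, the inhibitors that end the response. DEX binds the glucocorticoid receptor, which raises genes such as Tsc22d3, Fkbp5 and Dusp1 and lowers the transcription of many inflammatory genes. The gene state after both stimuli can therefore differ from the sensitized state in several ways. A gene can be back at its IgE level, still off it, past it on the other side, or moved by both stimuli together.

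The authors deposited raw read counts per gene. The total count on genes ran from 8612531 to 22143526 per library, with a median of 12814043.5. Of 39179 genes, 13305 passed the filter on low counts. Ptpn22, on chromosome 3 of GRCm38 from 103859795 to 103912247, checked the genotype labels first. It stood at 15.9 and 11.3 CPM (the read count scaled to library size after TMM) in the PEP+/+ IgE libraries and at 160 and 175 CPM in the PEP+/+ IgE DNP DEX libraries. In PEP-/- BMMCs the same values were 0 and 0.0514 CPM after IgE and 0.547 and 1.24 CPM after IgE DNP DEX, so each PEP-/- library lay below each PEP+/+ library. The mast cell markers Kit, Fcer1a, Ms4a2, Cpa3, Tpsb2, Mcpt4, Cma1 and Hdc summed to 62011 to 71111 CPM in the IgE libraries and to 79364 to 102540 CPM in the IgE DNP DEX libraries, with 3 of the 8 higher and none lower. Basophil markers (Mcpt8, Prss34 and Cd200r3) summed to 539 to 623 CPM after IgE and 431 to 479 CPM after both stimuli. Most of this was Cd200r3, at 503 to 535 CPM and 357 to 413 CPM, which was lower. Mcpt8 (net log2 fold change 0.03) and Prss34 (0.31) did not pass the test (adjusted p = 0.94 and 0.48, edgeR). The megakaryocyte list reached 3921 CPM through Itga2b, which mast cells also express. The other 8 marker lists summed to at most 43.7 CPM in any library of both groups, and among the defining markers C1qa, Camp, Epx, Ms4a1, Cd3e and Cd3g had no read in any library. Their members Hba-a1 (net log2 fold change 4.51), Siglecf (1.75), Cd14 (1.46), Ncr1 (0.99) and Pdgfrb (0.91) were higher and Itgax (-1.55) lower after both stimuli. The share of reads that aligned to several places, and were counted on no gene, was 21.5 to 25.6% in the IgE libraries and 30.3 to 37.8% in the IgE DNP DEX libraries. The TMM factor, which scales a library so that most genes do not move, was 1.14 to 1.18 after IgE and 0.821 to 0.937 after IgE DNP DEX. Both measures did not overlap between the groups (two-sided exact permutation test, p = 0.0286 each, the smallest p that 4 samples against 4 allow). Their part in the results below was not tested.

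Antigen and DEX together moved a large share of the transcriptome. Of 13305 genes, 6848 (51.5%) differed between IgE DNP DEX and IgE, 3449 (25.9%) higher and 3399 (25.5%) lower, at an adjusted p under 0.05 in edgeR's quasi-likelihood test. Of these, 2059 (15.5%) had an absolute log2 fold change of 1 or more, 1167 (8.77%) of them higher and 892 (6.70%) lower. Antigen alone called 5398 genes (40.6%; 19.7% higher, 20.8% lower) and DEX alone 3879 (29.2%; 14.2% higher, 15.0% lower). The median log2 fold change over all genes was -0.00037, because TMM centres it. Scaling by the library totals without TMM moved that median to -0.361 and the share of higher genes among those called from 50.4% to 19.7%, so every direction below is relative to the bulk of the genes. The fit held the replicate set (titles numbered 1 to 8 or lettered A to H) as a block, and without the block 3920 genes passed. In the numbered set alone 4171 genes passed and in the lettered set alone 5615.

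To describe the net state, the 1593 genes (12.0% of those tested) with a called antigen effect of 1 or more on the log2 scale were sorted by their level after both stimuli. Of these antigen genes, 954 (7.17% of those tested) had risen and 639 (4.80%) had fallen. A gene was counted as back at the IgE level when the 95% interval of its IgE DNP DEX against IgE log2 fold change lay within ±0.585, that is within 1.5-fold of IgE. It was counted as still off when it passed the test in the direction antigen had moved it, as past when it passed in the other direction, and as undecided otherwise. By this rule 58 genes were back, 1272 were still off, 34 were past and 229 were undecided. The undecided genes were 0.962% of those tested among the raised and 0.759% among the lowered genes. The interval lay within 1.5-fold of IgE in 35.6% of all tested genes. The antigen and the net comparison share the 4 IgE libraries, so a chance deviation there moves both the same way.

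**Figure D1:**
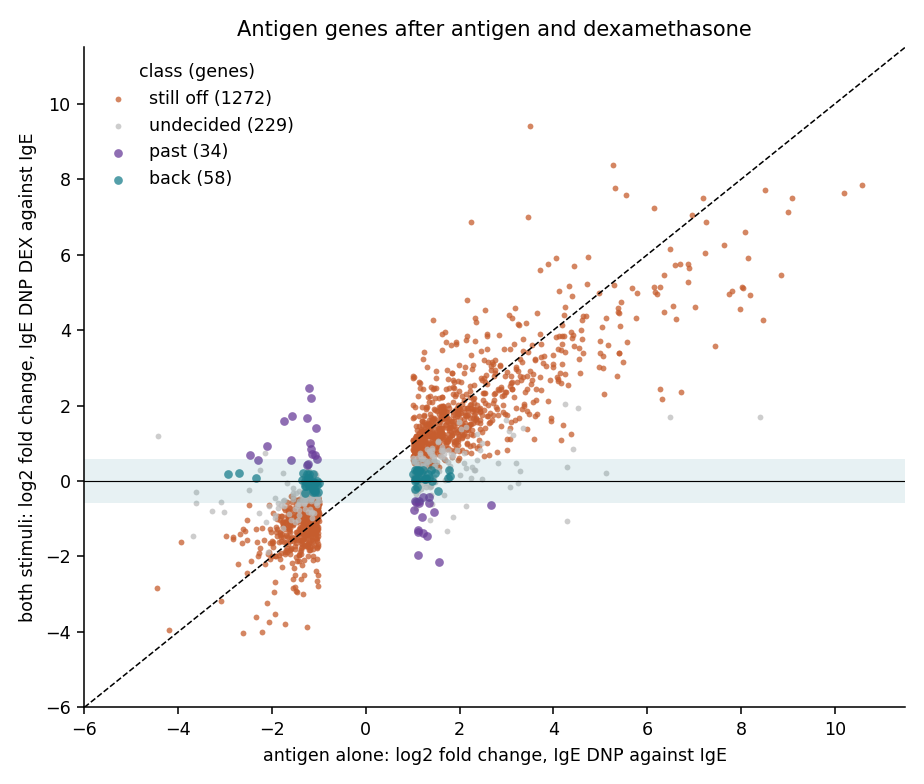
Each point is 1 of the 1593 antigen genes, with the log2 fold change of antigen alone (IgE DNP against IgE) on the x axis and that of both stimuli (IgE DNP DEX against IgE) on the y axis, coloured by class. The dashed line marks equal values and the shaded band 1.5-fold around the IgE level. Most points are still-off genes (1272), largely below the dashed line on the right, and the 58 back genes lie in the band.

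Few genes had returned to the sensitized level. The 58 back genes comprised 27 that antigen alone had raised (0.203% of tested genes), with a median log2 fold change of 1.19, and 31 that it had lowered (0.233%), with a median of -1.20. After both stimuli their medians were 0.12 and -0.05. DEX alone moved 17 of the 27 down and 24 of the 31 up, and IgE DNP DEX against IgE DNP called all 58 toward the IgE level, which the rule for this class largely fixes. Within the 1.5-fold band 5 of the 58 still passed the test against IgE. The class is set by the width of the intervals and by the scaling. It held 18 genes without the replicate block, 278 with a band of 1 on the log2 scale, and 69 with library totals, of which only 12 were among the 58.

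Tgm2, transglutaminase 2, was the largest antigen-raised gene among them. In the order PEP+/+ replicates 1 and 2, then PEP-/- replicates 1 and 2, used from here on, it stood at 123, 266, 75.6 and 232 CPM after IgE, at 401, 793, 326 and 842 CPM after IgE DNP, and at 100, 296, 114 and 248 CPM after IgE DNP DEX. The IgE and IgE DNP DEX ranges overlapped in large part, 3 of the 4 same-genotype pairs were higher with both stimuli, and the lettered replicates were higher than the numbered ones in every treatment. The net log2 fold change was 0.13 (95% interval -0.13 to 0.39, adjusted p = 0.405, edgeR), while DEX alone lowered Tgm2 by 1.49 on the log2 scale. Nabp1, a single-strand DNA binding protein, stood just inside the band, with a net log2 fold change of 0.29 (0.03 to 0.56) after 1.77 with antigen alone. Spp1 (osteopontin), Faah, which hydrolyses anandamide, and Ptgir, the prostacyclin receptor, had net log2 fold changes of 0.07, -0.27 and 0.21. With antigen alone they had 1.75, 1.54 and 1.48. The value of Spp1 pooled 0.50 in PEP+/+ and -0.37 in PEP-/- BMMCs, neither of which passed (adjusted p = 0.20 and 0.35, edgeR). Tgfb1 was the 1 cytokine of the list that was back, at 302 ± 17.4 CPM (SD, n = 4) after IgE, 668 ± 122 after IgE DNP and 368 ± 47.7 after IgE DNP DEX.

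Among the back genes that antigen had lowered, Abhd15, which encodes a hydrolase-like protein of lipid metabolism, showed the deepest fall. It stood at 17.6, 8.41, 25.2 and 11.4 CPM after IgE, at 2.36, 1.24, 3.86 and 0.936 CPM after IgE DNP, and at 18.4, 12.9, 26.4 and 10.7 CPM after IgE DNP DEX. Each IgE DNP library was below every IgE library, and the libraries with both stimuli spanned the same range as IgE. DEX alone raised Abhd15 by 1.78 on the log2 scale, and the net value was 0.18 (-0.14 to 0.49). Card6, a caspase recruitment domain protein, went from 7.44 ± 2.45 CPM after IgE to 1.10 ± 0.519 after IgE DNP and 8.50 ± 2.79 after IgE DNP DEX, although DEX alone had taken it to 53.9 ± 8.08 (SD, n = 4). Bmf, a BH3-only protein that promotes apoptosis, stood at 9.84 ± 6.25, 1.87 ± 1.24 and 9.91 ± 5.87 CPM in the same 3 treatments (IgE, IgE DNP and IgE DNP DEX). The zinc finger gene Zfp652 and the lysosomal amino acid carrier Slc36a1 completed the named genes of this group, with net values of 0.20 and -0.01.

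Still-off genes were by far the largest class, with 782 raised (5.88% of tested genes) and 490 lowered genes (3.68%). The raised genes had a median log2 fold change of 1.87 with antigen alone and 1.66 with both stimuli. In 603 of the 782 IgE DNP DEX and IgE did not overlap. Of all tested genes 25.9% did not overlap, 13.7% above and 12.2% below. The rule for this class asks for a call in the same comparison, which largely fixes the high count. The net change was smaller than that of antigen alone in 562 of the 782 genes, under 0.5 of it in 86, and larger in 220. In activated cells DEX called 354 of them toward the IgE level, 103 away from it, and 325 in neither direction. With the 15 raised genes that had no read after IgE set to 3 reads per library, the net median was 1.64. The lowered genes had medians of -1.30 and -1.11, and DEX in activated cells called 138 toward IgE, 26 away and 326 in neither direction.

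Of the 19 gene lists, cytokines and chemokines had the highest median with antigen alone. Of 28 tested members, 27 had risen with antigen alone, where 19.7% of all tested genes had, with a median of 4.43 on the log2 scale. After both stimuli 20 rose against IgE, where 25.9% of all tested genes did, 1 fell (Osm, -0.44) and 7 did not pass. The 28 members had a median of 1.94 against -0.00037 over all genes. It was 1.82 with the 2 members that had no read after IgE, Il5 and Il9, set to 3 reads per library. Il13, a type 2 cytokine, stood at 5.14, 5.03, 3.73 and 3.29 CPM after IgE, at 620, 701, 266 and 317 CPM after IgE DNP, and at 24.3, 38.4, 11.3 and 17.9 CPM after both. DEX alone took it below the IgE level, to 0.601 CPM, yet no IgE DNP DEX library reached down to the IgE range. Its net change was 5.14-fold (log2 2.36, standard error 0.21, adjusted p = 2.84e-08, edgeR).

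Tnf stood at 1.62, 1.82, 0.819 and 0.566 CPM after IgE, at 428, 464, 156 and 185 CPM after IgE DNP, and at 25.9, 33.5, 17.8 and 28.5 CPM after IgE DNP DEX. The last 4 libraries lay far above IgE and far below IgE DNP, with a net change of 23.8-fold (log2 4.57, standard error 0.28, adjusted p = 2.90e-11, edgeR). DEX alone gave a log2 fold change of 0.03 for Tnf and did not pass (adjusted p = 0.96). Ccl4, a chemokine for macrophages and T cells, went from 4.61 ± 0.574 CPM after IgE to 1360 ± 356 after IgE DNP and 141 ± 45.0 after both (SD, n = 4). Tnfsf14 (LIGHT) was at 35.4 ± 6.67, 1464 ± 285 and 797 ± 163 CPM after IgE, IgE DNP and both. Ccl3 had a net log2 fold change of 2.44 after 6.27 with antigen alone. Csf2 was counted at 0, 0, 1 and 0 reads after IgE and at 5, 19, 2 and 2 reads after both stimuli, so the size of its change is uncertain. Ccl2, which attracts monocytes, and Il2 were among the undecided genes, with net log2 fold changes of 0.31 (-0.06 to 0.67) and 0.84 (-0.67 to 2.36).

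Immediate early transcription factors stayed up almost as a group. All 29 tested members had risen with antigen alone (median 3.42), where 19.7% of all tested genes had. After both stimuli 26 rose against IgE, where 25.9% of all tested genes did, none fell, and 3 (Jun, Btg2 and Srf) did not pass. Their median net log2 fold change was 2.75, or 2.49 with Egr4, which had no read after IgE, set to 3 reads per library. Nr4a3, an orphan nuclear receptor, stood at 2.50, 1.73, 1.27 and 0.874 CPM after IgE, at 840, 947, 507 and 943 CPM after IgE DNP, and at 175, 284, 162 and 264 CPM after both. It was thus 140-fold above IgE (log2 7.13, standard error 0.36, adjusted p = 6.33e-12, edgeR) and 1.87 on the log2 scale below antigen alone. Fosb, a subunit of AP-1, was at 2.54 ± 2.16, 457 ± 98.5 and 182 ± 59.5 CPM (SD, n = 4) after IgE, IgE DNP and both. Egr1 had a net log2 fold change of 3.24 after 3.60 with antigen alone, and Bhlhe40 of 1.11 after 1.67.

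Feedback inhibitors of antigen signalling were also mostly above IgE. Of 37 tested members 35 had risen with antigen alone, where 19.7% of all tested genes had. After both stimuli 31 rose, against 25.9% of all tested genes, 1 fell (Spred3, -0.97) and 5 did not pass. The median net log2 fold change of the 37 was 1.66. Nfkbid, a nuclear inhibitor of NF-kB, stood at 11.1, 21.1, 9.20 and 20.8 CPM after IgE, at 1299, 2423, 1111 and 2378 CPM after IgE DNP, and at 629, 1121, 474 and 1120 CPM after both. No IgE DNP DEX library came near the IgE range, and the lettered replicates were above the numbered ones in each treatment. Dusp5, a phosphatase of nuclear ERK, was at 6.22 ± 2.39, 338 ± 82.0 and 195 ± 43.5 CPM in the same order (SD, n = 4). Zfp36, which degrades cytokine mRNAs, had a net log2 fold change of 2.46 after 1.47 with antigen alone and 0.05 with DEX alone. Of 9 NF-kB and NFAT subunits, 6 rose and 2 fell, where 25.9% of all tested genes rose and 25.5% fell, and Relb and Nfkb2 had net values of 2.51 and 2.15.

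**Figure D2:**
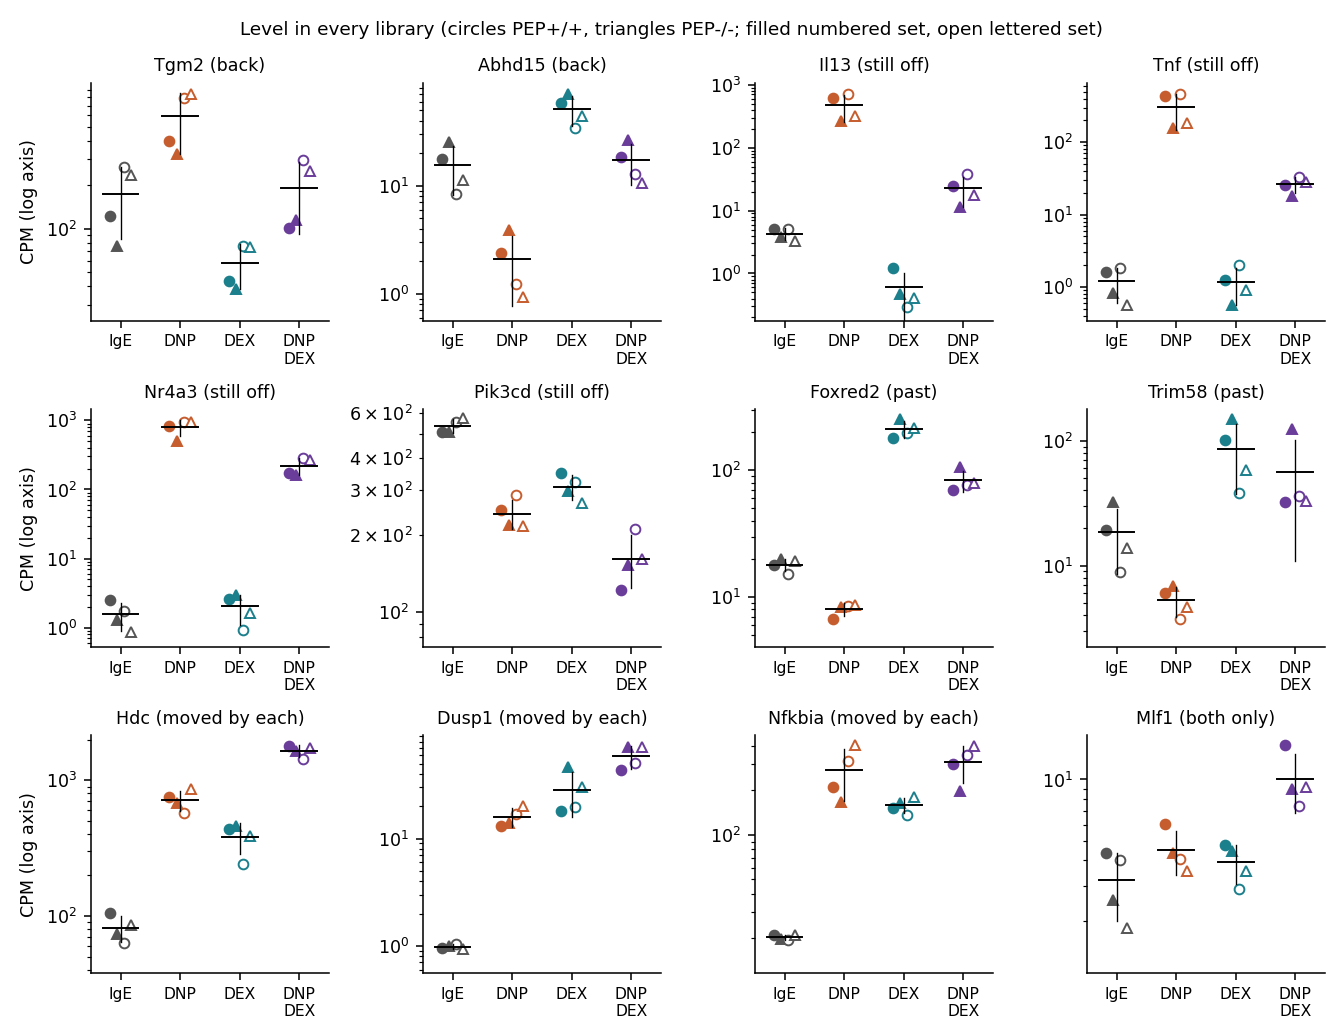
The CPM of 12 genes is plotted on log axes for each library after IgE, IgE DNP (DNP), IgE DEX (DEX) and IgE DNP DEX (DNP DEX), with circles for PEP+/+, triangles for PEP-/-, filled symbols for the numbered and open symbols for the lettered replicate set. Horizontal lines are means and vertical lines 1 SD (n = 4). Tgm2 and Abhd15 are level with IgE after both stimuli, Il13 and Tnf lie between IgE and IgE DNP, and Hdc and Dusp1 are highest with both.

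Of the still-off genes that antigen had lowered, Pik3cd, the p110 delta catalytic subunit of PI3 kinase that FceRI uses, stood at 507, 554, 508 and 576 CPM after IgE, at 250, 286, 218 and 218 CPM after IgE DNP, and at 121, 212, 152 and 162 CPM after both stimuli. The groups did not overlap, and the level with both was 3.33-fold below IgE (log2 -1.74, standard error 0.12, adjusted p = 2.50e-09, edgeR). Rnf43, a ubiquitin ligase that damps Wnt receptors, went from 14.1 ± 3.29 CPM after IgE to 3.68 ± 1.00 after IgE DNP and 2.26 ± 0.393 after both (SD, n = 4). DEX alone also lowered Rnf43, by 0.85 on the log2 scale (adjusted p = 2.59e-04, edgeR), and gave a 0.577-fold level for Pik3cd. Aurka, the mitotic kinase, and Sesn2, a stress-induced regulator of mTORC1, had net log2 fold changes of -1.29 and -1.65, while DEX alone gave -0.13 for each and did not pass (adjusted p = 0.40 and 0.44, edgeR).

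The 34 genes past the IgE level split evenly, 17 raised and 17 lowered by antigen alone. Over all tested genes these were 0.128% in each direction. The 17 lowered genes had a median of -1.23 with antigen alone, 1.96 with DEX alone and 0.86 with both. In 14 of them IgE DNP DEX and IgE did not overlap, where 13.7% of all tested genes lay fully above IgE. The rule for the past class also asks for a call in this comparison, so a high count is largely built in. Foxred2, a flavoprotein of the endoplasmic reticulum, stood at 17.9, 15.2, 19.9 and 19.1 CPM after IgE, at 6.71, 8.44, 8.29 and 8.64 CPM after IgE DNP, at 70.3, 76.4, 106 and 79.4 CPM after both, and with DEX alone at 181, 198, 253 and 217 CPM. The 4 treatments were fully separate, with both stimuli 4.60-fold above IgE (log2 2.20, standard error 0.10, adjusted p = 8.83e-12, edgeR). Trim58, an erythroid ubiquitin ligase, was at 18.5 ± 10.0, 5.30 ± 1.39, 86.7 ± 48.9 and 56.5 ± 45.5 CPM (SD, n = 4) for IgE, antigen alone, DEX alone and both. PEP-/- replicate 1 alone reached 125 CPM there, against 32.5 to 35.9 in the other 3. Fn3k, a kinase that deglycates proteins, and Ciart, a repressor of the circadian clock, had net log2 fold changes of 2.46 and 1.66. The 17 raised genes had a median of -0.77 with both stimuli. Of these, 2 did not overlap with IgE, where 12.2% of all tested genes lay fully below IgE. Rai14, an actin-binding protein, and Bcr, a regulator of small GTPases, were named here. They passed at -0.58 and -0.57 (adjusted p = 0.0176 and 0.00854, edgeR), but neither passed without the replicate block (adjusted p = 0.076 and 0.10), and Rai14 lost its call without any of 4 single libraries. The class held 14 genes without the block.

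In 157 genes antigen alone, DEX alone and both together all moved the level the same way, each with a log2 fold change of 1 or more in size, 115 up (0.864% of tested genes) and 42 down (0.316%). The 115 had medians of 2.37 with antigen, 2.18 with DEX and 3.44 with both, and in 81 of them the change with both exceeded each single one. With 5 genes that had no read after IgE set to 3 reads per library, the last median was 3.42. The 42 had medians of -1.42, -1.48 and -2.15, and in 34 the fall with both was the deepest. The single changes and the joint change share the IgE libraries, and no test of additivity was made.

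Hdc, histidine decarboxylase, which makes histamine, was the most abundant mast cell product among them. It stood at 105, 62.8, 73.7 and 86.2 CPM after IgE, at 748, 572, 676 and 863 CPM after IgE DNP, at 1796, 1429, 1662 and 1729 CPM after both, and with DEX alone at 438, 243, 463 and 387 CPM. The 4 treatments did not overlap, and the level with both was 20.2-fold above IgE (log2 4.34, standard error 0.16, adjusted p = 1.67e-12, edgeR). Dusp1, the phosphatase that inactivates p38 and JNK, rose from 0.955, 1.04, 1.00 and 0.926 CPM after IgE to 18.2, 19.9, 46.2 and 30.4 CPM with DEX alone and to 43.4, 50.2, 70.7 and 71.8 CPM with both. All IgE DNP DEX libraries were above all IgE DNP libraries, and the lowest of them was just under the highest IgE DEX library. Its net value was 5.92 on the log2 scale (standard error 0.29, edgeR adjusted p = 1.51e-12), after 4.06 and 4.85 with the single stimuli.

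A further rise with both did not pass the test in every gene of this class, and some were lower with both than with antigen alone. IgE DNP DEX against IgE DNP gave log2 fold changes of -2.73 for Atf3, -0.80 for Trib1 and -1.19 for Ptgs2. Each was called (adjusted p = 8.4e-07, 0.0079 and 0.013, edgeR). Of the 115 raised genes, 88 had a net change at least as large as that of antigen alone. Nfkbia, the inhibitor IkB alpha and a target of both NF-kB and glucocorticoids, was at 20.3 ± 0.843 CPM in the IgE group, 275 ± 106 with antigen alone, 159 ± 18.6 with DEX alone and 312 ± 86.0 with both (SD, n = 4). Its difference of 0.20 on the log2 scale between both stimuli and antigen alone did not pass (adjusted p = 0.42, edgeR). Ptgs2, the inducible cyclooxygenase, stood at 0.371 ± 0.303 CPM after IgE, 38.9 to 62.7 CPM after IgE DNP and 24.5 ± 20.4 CPM after both (SD, n = 4), where PEP-/- replicate 1 reached 54.6 CPM and the other 3 lay between 11.1 and 18.9. Tnfaip3 (A20), Cebpb and Dusp2 had net log2 fold changes of 3.03, 3.75 and 4.22. Il2ra (CD25) rose by 3.70 on the log2 scale, Pfkfb3, which drives glycolysis through fructose 2,6-bisphosphate, 9.41-fold, and Glul, glutamine synthetase, 6.91-fold to 5823 ± 614 CPM. Sphk1, which makes sphingosine 1-phosphate, was counted at 2, 1, 0 and 6 reads after IgE and stood at 32.9, 41.1, 19.4 and 51.2 CPM after both, against 6.75 ± 3.82 CPM with antigen alone. Of the genes moved down, Tulp3, a protein of primary cilia, went from 102 ± 20.7 CPM after IgE to 50.5 ± 4.71, 31.6 ± 3.93 and 17.9 ± 3.01 CPM after IgE DNP, IgE DEX and both. Ccne1 (cyclin E1) and Usp18, which trims the ubiquitin-like ISG15, fell by 2.38 and 2.08 on the log2 scale.

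**Figure D3:**
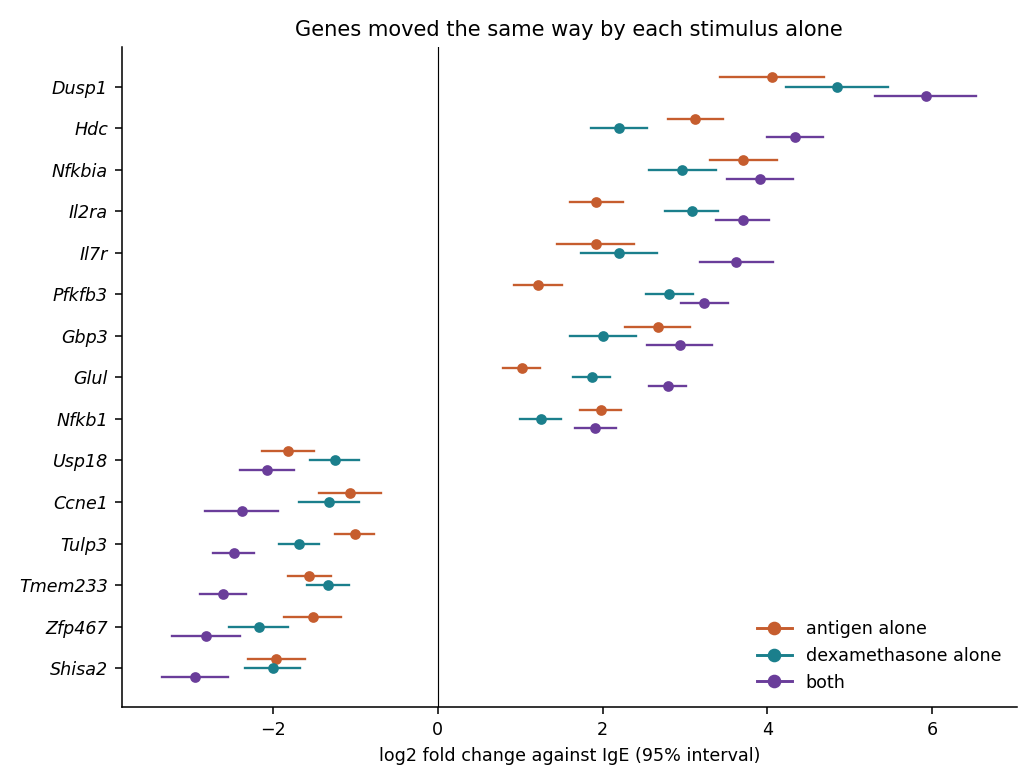
For 15 genes moved the same way by each stimulus, points give the log2 fold change against IgE with antigen alone, DEX alone and both, and bars the 95% intervals of the edgeR fit. Both stimuli gave the largest value for Dusp1, Hdc, Il2ra and Glul, while for Nfkb1 the value with both (1.91) lay close to that of antigen alone (1.98).

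Promoter sequences are shown for 4 named genes whose windows held the letters of a response element, 3 of them (Nfkbia, Dusp1 and Sphk1) moved by each stimulus and 1 (Mlf1, described next) called with both only. The windows run from 250 bases before to 50 bases after the start site listed by RefSeq on GRCm38.p6, 5′ to 3′ on the strand of the gene, and the matched letters are in capitals. The Nfkbia window, at chr12:55492598-55492897 on the minus strand, held 1 NF-kB element 29 bases before the start site. The Dusp1 window, at chr17:26508423-26508722 on the minus strand, held 1 cyclic AMP response element 143 bases before it. The Sphk1 window, at chr11:116531587-116531886 on the plus strand and 1 of 5 listed for this gene, held 1 AP-1 element 50 bases before its start site. The Mlf1 window lay at chr3:67373847-67374146 on the plus strand. It held TGATTCA, counted here under AP-1, 224 bases and a cyclic AMP response element 54 bases before the start site.
Nfkbia: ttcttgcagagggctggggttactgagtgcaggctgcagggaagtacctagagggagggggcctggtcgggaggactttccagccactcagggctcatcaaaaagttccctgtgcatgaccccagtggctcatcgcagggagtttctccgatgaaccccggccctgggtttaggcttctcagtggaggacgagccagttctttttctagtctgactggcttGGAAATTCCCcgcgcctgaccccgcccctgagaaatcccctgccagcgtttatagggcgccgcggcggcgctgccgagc
Dusp1: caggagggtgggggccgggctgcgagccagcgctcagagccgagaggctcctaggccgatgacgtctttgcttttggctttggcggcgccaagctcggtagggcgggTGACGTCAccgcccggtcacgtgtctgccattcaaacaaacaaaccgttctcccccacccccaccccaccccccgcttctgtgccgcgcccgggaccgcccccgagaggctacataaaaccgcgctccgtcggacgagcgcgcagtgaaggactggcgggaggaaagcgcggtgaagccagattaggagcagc
Sphk1: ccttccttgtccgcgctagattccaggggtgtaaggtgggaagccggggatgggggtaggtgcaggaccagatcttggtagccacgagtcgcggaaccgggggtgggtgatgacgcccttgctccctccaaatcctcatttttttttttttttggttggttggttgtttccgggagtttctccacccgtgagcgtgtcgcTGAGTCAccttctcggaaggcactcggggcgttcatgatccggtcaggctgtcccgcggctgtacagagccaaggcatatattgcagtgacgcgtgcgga
Mlf1: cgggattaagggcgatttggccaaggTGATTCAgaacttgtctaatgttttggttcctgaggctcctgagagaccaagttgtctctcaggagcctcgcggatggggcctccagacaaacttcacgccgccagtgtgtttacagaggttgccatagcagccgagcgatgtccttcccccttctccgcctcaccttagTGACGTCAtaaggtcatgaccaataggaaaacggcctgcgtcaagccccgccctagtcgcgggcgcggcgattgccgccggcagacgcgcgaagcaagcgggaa

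The letters searched, on both strands, were TGANTCA for AP-1 and TGACGTCA for the cyclic AMP response element. The NF-kB element and the glucocorticoid response element were each searched by a single narrow pattern of letters, not by the full consensus. Their shares below are shares of these patterns only, and other forms of the elements were not counted. Of the 13305 tested genes, 9594 were matched by symbol to at least 1 RefSeq window, and a gene counted if any of its windows held the letters. AP-1 letters were in 6.20% of the tested genes and 8.97% of all 27025 genes with a window. They were in 66 of 560 still-off raised genes (11.8%) and 16 of 370 still-off lowered genes (4.32%). Each stimulus had raised 77 genes, 11 with the letters (14.3%), and lowered 26, 2 with them (7.69%). Back genes held them in 7 of 25 that antigen had lowered (28.0%) and 1 of 21 it had raised (4.76%). Genes moved by DEX but not antigen alone held them in 22 of 223 raised (9.87%) and 16 of 131 lowered (12.2%). Genes called with both only held them in 4 of 26 higher (15.4%) and 3 of 57 lower (5.26%). NF-kB letters were in 2 of the 77 (2.60%) against 0.521% of the tested genes, and the cyclic AMP response element in 6 of the 77 (7.79%) against 3.55%. The letters searched for the glucocorticoid response element were in none of the 77 genes and in 0.365% of the tested genes. They were in 3 of 223 genes (1.35%) that DEX but not antigen alone had raised. These are matches of letters in a short window and no test was made of them.

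A further 141 genes were called only with both stimuli, at 1 or more on the log2 scale, with neither single comparison passing. There were 53 higher (0.398% of tested genes) and 88 lower (0.661%). Of these, 21 and 42 did not overlap with IgE, where 13.7% of all tested genes lay fully above and 12.2% fully below. Both sets were chosen by a call in the same comparison, which raises these counts. The 53 and the 88 genes had medians of 1.29 and -1.29 with both stimuli. Their medians were 0.69 and -0.51 with antigen alone and 0.42 and -0.49 with DEX alone. A single change that misses the threshold is not shown to be absent. The size of this class depended on the processing. It was 12 genes with at least 10 counts in every library, 323 without the replicate block and 251 without the filter. Leaving out each library in turn gave 141 to 241. Its members changed too. Of the 141 genes, 64 were kept without the replicate block, 45 with library totals and 113 with DESeq2, where the class held 144. Mlf1, a regulator of haematopoietic differentiation, stood at 4.33, 3.99, 2.55 and 1.85 CPM after IgE and at 14.8, 7.37, 8.99 and 9.23 CPM after both, with 4.49 ± 1.09 after IgE DNP and 3.92 ± 0.848 after IgE DEX (SD, n = 4). Each library with both stimuli lay above every other library of the series, with a net value of 1.67 on the log2 scale (standard error 0.20, edgeR adjusted p = 1.76e-06). Snx27, which recycles membrane receptors from endosomes, stood at 28.7, 17.2, 27.3 and 16.4 CPM after IgE and at 5.99 to 13.8 CPM (10.0 ± 3.32, SD, n = 4) after both, and fell by 1.14 on the log2 scale. The groups did not overlap. Slc23a2, a vitamin C transporter, fell by 1.02, and Me3, a mitochondrial malic enzyme, had a net value of 1.03, both with overlapping libraries, and Me3 did not pass without the replicate block (adjusted p = 0.16, edgeR).

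The DEX arm of the net state was seen in 490 genes that DEX alone and both stimuli moved the same way, with 1 or more in log2, while antigen alone did not pass, 312 up (2.34% of tested genes) and 178 down (1.34%). With both stimuli their medians were 2.04 and -1.49, against 2.13 and -1.38 with DEX alone. With 7 raised genes that had no read after IgE set to 3 reads per library, the first median was 1.99. Fkbp5, a co-chaperone of the glucocorticoid receptor, stood at 124, 72.5, 108 and 84.3 CPM after IgE, at 1068, 771, 1077 and 801 CPM after IgE DEX, and at 973, 806, 930 and 745 CPM after both. The last 2 treatments overlapped and lay far above IgE, with a net value of 3.17 on the log2 scale (standard error 0.09, edgeR adjusted p = 3.92e-14). Tsc22d3 (GILZ) was outside this class because antigen alone lowered it by 0.91 on the log2 scale, and it had a net value of 2.83. Sult1a1, a sulfotransferase, was at 308 ± 58.8 CPM with both, against 0.843 ± 0.450 after IgE. The survival gene Bcl2 had 73.1 ± 33.8 CPM after IgE and 274 ± 63.4 after both (SD, n = 4). Ptgds, prostaglandin D synthase, was counted at 1, 0, 0 and 0 reads after IgE and stood at 8.07, 4.93, 9.70 and 14.3 CPM after both. Tlr7 had 1 to 3 reads per IgE library and 7.18 to 30.0 CPM after both. Of the genes moved down, the interferon-induced GTPase gene Gbp4 went from 76.3 ± 23.1 to 13.3 ± 2.93 CPM and Igfbp5, which binds insulin-like growth factors, from 712 ± 165 to 141 ± 85.4 CPM. Of the 26 tested glucocorticoid targets in the list, 21 rose, 2 fell (Arrdc2 and Txnip) and 3 did not pass. Over all tested genes 25.9% rose and 25.5% fell. The targets had a median of 2.25, against 1.84 with DEX alone and 0.87 with antigen alone. DEX alone raised 18 of the 26 and lowered 1, where it raised 14.2% and lowered 15.0% of all tested genes. Antigen alone raised 15 and lowered 5, where it raised 19.7% and lowered 20.8% of all tested genes. By the rule above 12 of the 26 were still-off antigen genes, so the list does not show DEX action apart from antigen.

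Of 24 tested mast cell identity and granule genes, 8 rose, 5 fell and 11 did not pass, with a median of 0.03. These shares lie near those over all tested genes, 25.9% higher and 25.5% lower. Beside Hdc, the tryptase gene Tpsab1 had a net log2 fold change of 2.93 and Srgn, the granule proteoglycan core, of 1.05. Among the 5 that fell were the protease gene Mcpt1 (-0.93) and the receptor gene Il1rl1 (-0.36). Il1rl1 did not pass without the replicate block. Cpa3, mast cell carboxypeptidase, rose by 0.54, from 35364 to 51393 CPM on average, and Fcer1a, the IgE-binding chain, also by 0.54, and neither passed when scaled by library totals (0.18 and 0.17). Kit, the stem cell factor receptor, had -0.11 (-0.34 to 0.12) and the receptor beta chain Ms4a2 -0.25 (-0.57 to 0.07). Among 34 IgE receptor signalling genes 13 rose and 8 fell, against the same 25.9% and 25.5%, so the lower share is that of all genes. The proximal kinase Lyn rose by 1.39 and the adaptor Lcp2 (SLP-76) by 1.13, while Syk and Fyn fell by 0.52 and 0.43 on the log2 scale. Kcnn4, the calcium-activated potassium channel that sustains calcium entry, rose by 1.42.

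Replication and cholesterol genes leaned downward. Of 30 replication and mitosis genes 23 fell, against 25.5% of all tested genes, 1 rose (Pcna, 0.58) and 6 did not pass, with a median of -0.51, against -0.21 with antigen and -0.35 with DEX alone. The helicase subunits Mcm2 and Mcm4 fell by 1.39 and 1.16 and the origin licensing factor Cdc6 by 1.58. In bulk samples fewer cells in cycle and less RNA per cycling cell cannot be told apart. Of 23 cholesterol synthesis and uptake genes 12 fell, none rose and 11 did not pass, where 25.5% of all tested genes were lower and 25.9% higher. Their median was 0.40 with antigen alone, -0.86 with DEX alone and -0.34 with both. Hmgcs1 and Cyp51, which make HMG-CoA and demethylate lanosterol, were back at the IgE level, with Hmgcs1 at 307 ± 163 CPM after IgE and 292 ± 98.4 after both (SD, n = 4). With library totals Hmgcs1 passed at -0.32. Dhcr7, which makes cholesterol in the last step, stood at 70.7, 50.7, 80.3 and 58.6 CPM after IgE and at 22.8, 16.4, 24.0 and 14.8 CPM after both. The groups did not overlap, and Dhcr7 fell by 1.75 on the log2 scale.

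The remaining lists were read against the background of 25.9% higher and 25.5% lower. Of 26 cytokine receptors 13 rose and 5 fell, among them Il7r (3.63) and, downward, the abundant Csf2rb2 (-0.50). Of 16 inhibitory and co-stimulatory receptors 9 rose and 6 fell, with the checkpoint receptor Havcr2 (TIM-3) at 3.05 and Cd200r3 at -0.44. Of 14 eicosanoid genes 9 rose and 2 fell, with Ptgs1 (cyclooxygenase 1) at 2.10 and Alox5 (5-lipoxygenase) at -0.41. Of 9 Toll-like receptor genes 6 rose and 2 fell. Among 13 members of the BCL2 family 6 rose and 2 fell. The pro-apoptotic Bcl2l11 (BIM) went from 13.5 ± 1.28 CPM after IgE to 147 ± 15.4 after IgE DNP and 48.7 ± 10.6 after both (SD, n = 4), while Bbc3 (PUMA) and Mcl1 had net values of 1.32 and 1.15. Of 17 interferon-stimulated genes 7 fell and 3 rose, and of 21 glycolysis genes 7 fell and 3 rose, with Hk2 at -1.12. Circadian clock genes split into 7 higher and 5 lower of 16, with Per1 at 2.04 and Per3 at -1.70. Of 23 genes of the integrated stress response and serine synthesis 7 rose and 5 fell, with Slc3a2 at 1.66 and Phgdh at -1.51. Of 30 ribosome biogenesis genes 12 rose and 3 fell, all by less than 1.

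**Figure D4:**
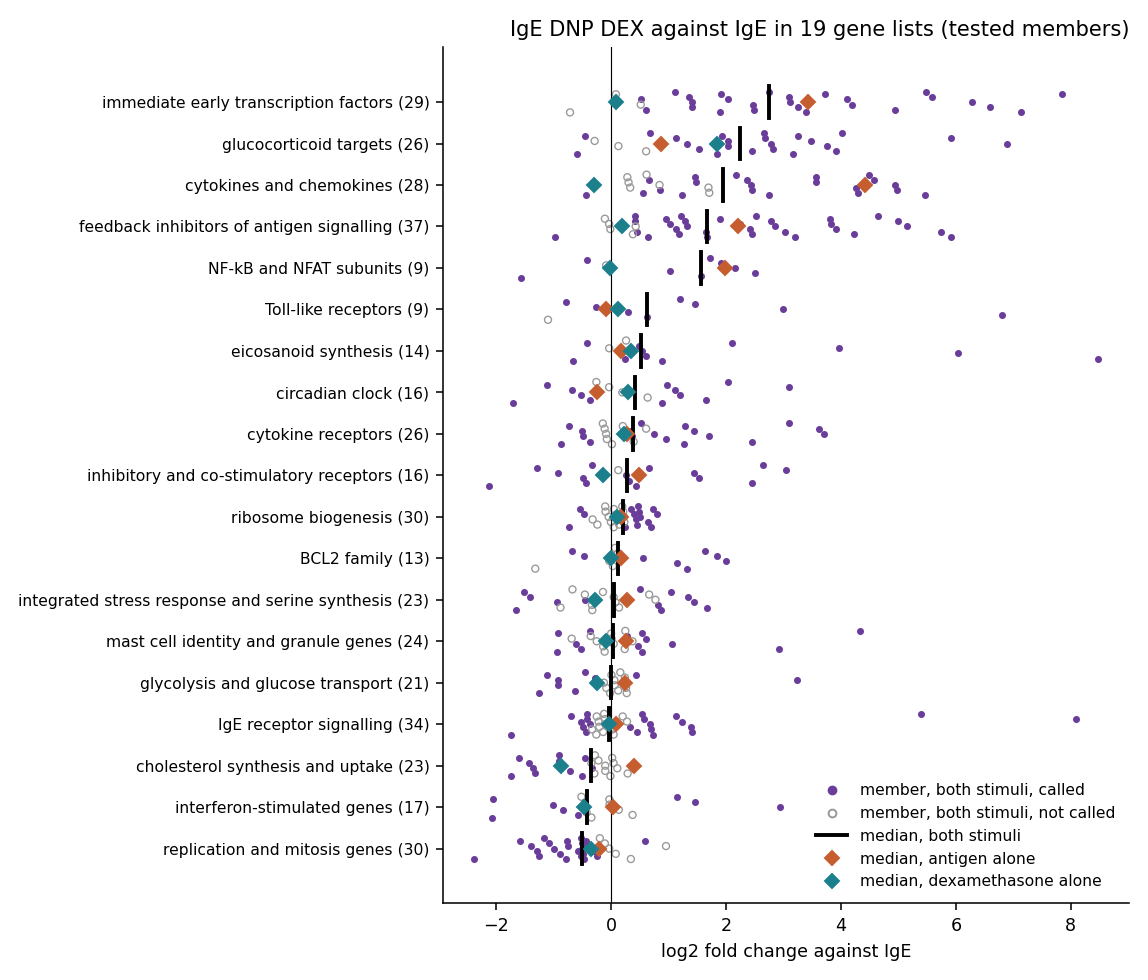
The log2 fold change of IgE DNP DEX against IgE is plotted for each tested member of 19 gene lists (filled, called; open, not called), with the list median as a black bar and the medians of antigen alone and DEX alone as diamonds. The number of tested members stands behind each name. Immediate early genes and cytokines lie to the right, below the median of antigen alone, and replication genes to the left.

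Each genotype showed the net state on its own. In PEP+/+ BMMCs 4270 genes (32.1%) differed between IgE DNP DEX and IgE and in PEP-/- BMMCs 4346 (32.7%). Il13 had net log2 fold changes of 2.61 and 2.06, Tnf of 4.10 and 5.13, Hdc of 4.28 and 4.40, and Abhd15 of 0.35 and 0.01. The difference between the genotypes was tested directly as an interaction, and 0 of 13305 genes passed in edgeR, with 378 (2.84%) at an unadjusted p under 0.05. DESeq2 also called 0, with 309 unadjusted. That no gene passed depended most on 1 library, PEP+/+ IgE DNP DEX replicate 2. Leaving out PEP+/+ IgE DNP DEX replicate 1 also moved the unadjusted p-values, to a smaller degree. Each fit without 1 library leaves a lone sample in a group, which is then assumed to vary like the other groups. Why these libraries mattered was not tested. That no gene passed is no proof that the genotypes responded alike.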

How the data were processed

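RNA was sequenced from 16 samples of BMMCs. The authors deposited raw read counts per Ensembl gene, 1 table per library. Per the study's methods and the submitters' processing notes, reads from a stranded mRNA kit were aligned with TopHat2 to GRCm38 and counted with HTSeq. Whether counting used the strand is not given in the sources used here, so overlapping antisense genes cannot be told apart. The 5 rows that name no gene were left out of library sizes (29.1 to 49.6% of all reads listed). Names were matched for 37607 of 39179 gene identifiers (95.99%).

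Counts were tested with edgeR 4.0.16 (quasi-likelihood, TMM, filterByExpr with a minimum count of 10, R 4.3.3) over all 16 samples, with treatment, genotype and replicate set as terms and 10 residual degrees of freedom. P-values were Benjamini-Hochberg adjusted over 13305 genes at 0.05. The genotype difference used a fit with 8 condition means and the set (7 residual degrees of freedom). Same-lettered or same-numbered samples deviated together (r = 0.453 to 0.755 over 6 pairs of groups, across genes), so the set was kept as a block. Replicates differed beyond sampling noise (chi-square per degree of freedom 54.9 to 163). Intervals are 95% Wald intervals and cover the modelled spread only. Alternatives included DESeq2 1.42.0, other scalings, filters and samples left out.

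The members and lists were chosen with earlier results of these data known. Named genes were those the study names, up to 5 per class and direction by size of change among protein-coding genes at 10 CPM or more that moved the same way in 4 of 4 pairs, and up to 4 called and 2 abundant members per list. Others, such as Ccl3, Egr1, Zfp36, Lyn and Syk, were named after their values were seen. IgE DNP DEX against IgE DNP, the class past the IgE level and scaling by library totals were added after the data were seen.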

Additional observations from a re-analysis of the deposited data

Results flagged for a closer look

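The reads that aligned to several places were used in no comparison, and their share was flagged because it stood above the level of the sensitized samples. The mean was 33.0% of all reads listed in the IgE DNP DEX libraries and 23.6% in the IgE libraries, with 24.0 to 31.5% after IgE DNP and 25.1 to 27.7% after IgE DEX. No gene passed the test of a genotype difference in the net change over all samples. With 2 samples per genotype and treatment single samples were not tested as outliers.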

How the results depend on the processing

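The number of genes that differed between IgE DNP DEX and IgE was 6848, and 6874 with DESeq2. It was 3920 without the replicate block, 4171 in the numbered set alone, 4270 in PEP+/+ alone, 4346 in PEP-/- alone and 2059 with a log2 fold change of at least 1. Library totals without TMM, chosen after seeing the data, moved the share of higher genes to 19.7%. Without the replicate block 18 genes were back, 14 were past and 323 were called with both only, and the pairing of the sets rests on the correlations given with the processing. With at least 10 counts in every sample 844 were still off, 20 past, 73 moved by each stimulus, 12 called with both only and 216 in the DEX class. Without the filter 251 were called with both only and 11 differed between genotypes (576 at an unadjusted p under 0.05). A band of 1 on the log2 scale put 278 genes back. With no minimum change 1558 were back, 3189 still off, 832 moved by each, 1495 called with both only and 1519 in the DEX class. Leaving out each of the 16 libraries in turn gave 5992 to 6967 genes for the net change, 39 to 66 back, 1145 to 1340 still off, 25 to 38 past, 140 to 164 moved by each, 141 to 241 with both only, 496 to 565 in the DEX class and 0 to 422 for the genotype difference. The causes were not tested.

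Of 163 named genes, 141 were called and 151 kept their side of the threshold without any single library. No called gene changed sign, and 8 that were not called did (Spp1, Bmf, Slc36a1, Nfat5, Lat2, Hmgcs1, Stat2 and Gapdh). DESeq2 and its size factors changed 0 of 163 calls, and leaving out the block ended 13. Library totals ended 14 and turned 4 that had not been called, Lat2 (-0.32), Hmgcs1 (-0.32), Gapdh (-0.30) and Bax (-0.25). In the lettered set alone Nfat5, not called in all samples, turned to 0.44. Genes with few reads after IgE (Csf2, Sphk1, Ptgds and Tlr7) limit what depth can show.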
